A study of Homo sapiens with 21 samples.

Results

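MV4-11 leukaemia cells with a CRISPR knockout of HK2 were compared with wild type MV4-11 cells after both had spent 24 h in ironomycin. The comparison took 6 of the series' 21 libraries, namely 3 of the HK2 knockout and 3 of wild type, chosen by the genotype, treatment and time that the labels give. MV4-11 is a human line of mixed B-lymphoid and monocytic character that carries a KMT2A fusion and an internal duplication in FLT3. Ironomycin, also called AM5, is a derivative of the polyether salinomycin. The other groups used here, also of 3 libraries each, were both genotypes in the solvent DMSO and a PGP CRISPR knockout in ironomycin for 24 h, and every group was grown in the same medium. The labels give no duration for DMSO. They do not say whether a knockout was a single clone or a pool, nor whether the wild type cells carried a control guide, so a difference between clones and an effect of the lost gene cannot be told apart. Whether replicates came from separate cultures is not stated either, and the p-values therefore cover the spread among these libraries, which may be technical.

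Hexokinases transfer phosphate from ATP to glucose, the step that traps glucose in the cell and commits it to glycolysis, the pentose phosphate pathway, glycogen or the hexosamine pathway. HK1 is the common form in most tissues, while HK2 is induced by insulin, hypoxia and growth signals and is abundant in many tumours. Both dock on the outer mitochondrial membrane at the voltage-dependent anion channel, where bound hexokinase has been linked to resistance to apoptosis. PGP is a phosphatase that removes phosphoglycolate and other toxic side products of glycolytic enzymes. The series title joins loss of mitochondrial iron to a death pathway that needs BAX or BAK. The comparison asks whether the transcriptome of cells already exposed to the drug depends on HK2.

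Few transcripts separated the genotypes under the drug. Of 11610 genes tested, 8 differed between HK2 knockout and wild type at an adjusted p under 0.05 in edgeR, which is a share of 0.0689%. CHI3L1, SLC2A5, CADM1 and MEF2C were lower in the knockout, and DENND1B, FGL2, CRYBG1 and PLAC8 were higher. The change was at least 2-fold for 3 of them, CHI3L1, FGL2 and DENND1B. By contrast, 24 h of ironomycin against DMSO changed 3465 genes in wild type (29.8%) and 3418 in the HK2 knockout (29.4%). The genotype comparison had 638 genes at an unadjusted p under 0.05, of which 330 were higher (2.84%) and 308 lower (2.65%). Levels are given as CPM, read counts scaled to library size and TMM factor, and differences as log2 fold change ± SE with n = 3 libraries per group. Because the RNA is from bulk culture, fewer cells of a kind and less RNA per cell cannot be told apart.

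The 95% interval of the difference, not adjusted for the number of genes, lay within 2-fold in either direction for 9267 genes (79.8%), and the median SE was 0.201 on the log2 scale. That share was 98.5% among the 1732 genes averaging 100 CPM or more and 86.5% among the 3238 genes between 5 and 20 CPM. Among the 2391 genes under 5 CPM it was 24.5%, so at that level a 2-fold difference was often not detectable at this depth. A call needs more than such an interval. HK2, for one, differed by more than 2-fold with no overlap and was not called. The 6 libraries held between 4281779 and 5100492 counts, within the range of the whole series (3829274 to 6069264). A principal component of the 6 libraries that took 23.1% of the variance separated the genotypes, with scores of 8.7 to 16.4 in wild type and -27.3 to -2.9 in the knockout. The component above it took 28.7% and did not. One library outside the comparison, wild type at 6 h replicate 2, stood apart from its group (SD of its log2 deviations 0.675, against 0.332 to 0.48 in the other 20 libraries). It entered the shared estimate of spread, and without it 19 genes were called rather than 8.

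HK2 itself (ENSG00000159399) was lower in the libraries labelled knockout but not absent. In wild type at 24 h it stood at 36.3, 44.5 and 53.9 CPM, and in the HK2 knockout at 14.7, 16.8 and 22.2 CPM. The groups did not overlap, and the highest knockout library was below the lowest wild type library. The difference was -1.32 ± 0.29 (95% interval -1.92 to -0.72), with an edgeR adjusted p of 0.115, so it was not called. It was called without the 6 h library that stood apart (adjusted p = 0.00315) and in DESeq2 (adjusted p = 0.00582). Over all alternative settings its adjusted p lay between 3.29e-10 and 0.644. In DMSO the difference was -1.27 ± 0.28, and the change of the difference with ironomycin was -0.05 ± 0.41. The 3′ tag lies outside many possible CRISPR edits, so it need not follow the loss of the protein.

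**Figure D1:**
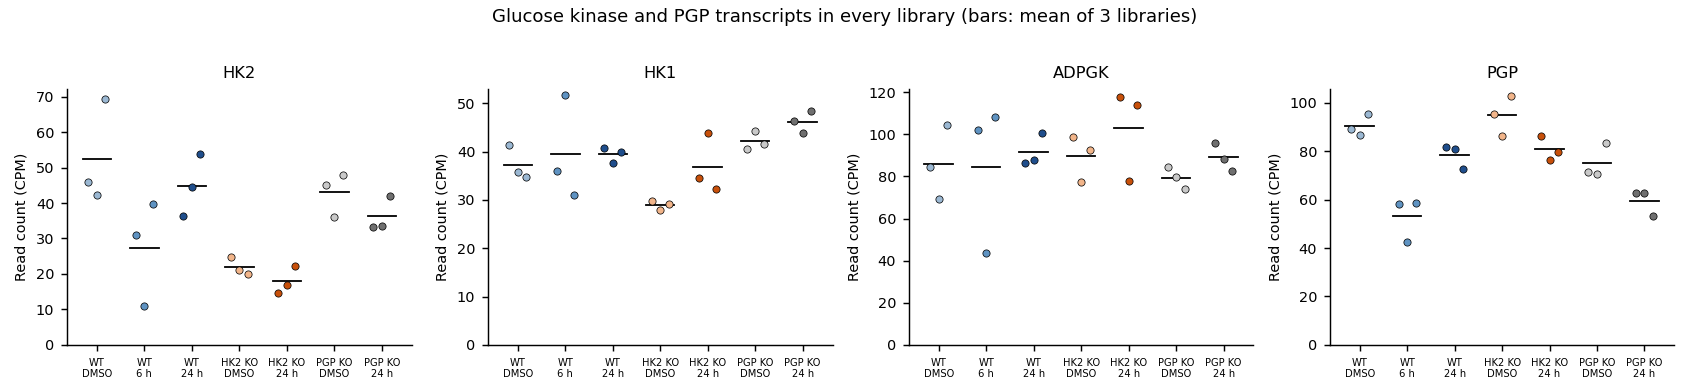
Read counts (CPM, linear axis from 0) of HK2, HK1, ADPGK and PGP in each of the 21 libraries, by genotype and treatment. Points are libraries and bars are means of 3. At 24 h the HK2 knockout libraries lie between 14.7 and 22.2 CPM for HK2, below the wild type libraries at 36.3 to 53.9 CPM, while HK1, ADPGK and PGP overlap between these groups.

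The other glucose kinases did not differ beyond their error between HK2 knockout and wild type at 24 h. HK1 stood at 40.8, 37.6 and 39.9 CPM in wild type at 24 h and at 34.6, 43.8 and 32.3 CPM in the HK2 knockout. These overlapped, and the difference was -0.10 ± 0.15 (95% interval -0.41 to 0.22). In DMSO HK1 was lower in the HK2 knockout in every library, by -0.36 ± 0.15 (95% interval -0.68 to -0.04), and was not called (edgeR adjusted p = 0.875). At 24 h HK2 minus PGP knockout gave -0.33 ± 0.15 for HK1 (95% interval -0.64 to -0.01), also not called. ADPGK, an ADP-dependent kinase of the endoplasmic reticulum, overlapped between HK2 knockout and wild type at 24 h, with a difference of 0.17 ± 0.22 (95% interval -0.29 to 0.63). HK3 and HKDC1 had between 0 and 2 counts over either group of 3 libraries, under the floor of 3 counts (0.205 CPM in wild type and 0.212 CPM in the knockout), so no fold change is given. PGP, the target of the other knockout, differed by 0.04 ± 0.12 between HK2 knockout and wild type. In the libraries labelled PGP knockout at 24 h it was little reduced, at 62.9, 62.8 and 53.1 CPM against 81.8, 81.1 and 72.7 CPM in wild type. These did not overlap, but the difference of -0.40 ± 0.12 was not called (edgeR adjusted p = 0.722).

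CHI3L1 (ENSG00000133048) encodes a secreted chitinase-like glycoprotein made by macrophages, neutrophils and some tumours. Wild type at 24 h had 699.8, 878.9 and 1122.7 CPM, and the HK2 knockout had 239.2, 283.7 and 365.3 CPM. All knockout libraries were far below all wild type libraries, and the difference was -1.60 ± 0.22 (3.04-fold, edgeR adjusted p = 0.00292). Ironomycin raised CHI3L1 in wild type by 1.06 ± 0.22 over DMSO (edgeR adjusted p = 0.000673), and in the HK2 knockout its difference from DMSO was 0.39 ± 0.22 (edgeR adjusted p = 0.191). The difference between those responses was -0.67 ± 0.31, with an edgeR adjusted p of 1. CHI3L1 was 1 of 2 among the 8 genes that stayed called when each of the 6 libraries was left out in turn (edgeR adjusted p 0.00181 to 0.03).

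DENND1B (ENSG00000213047), an exchange factor that activates Rab GTPases in membrane traffic, was the other. It was a low transcript, at 5.53, 6.13 and 6.4 CPM in wild type at 24 h and 16.3, 14.9 and 12.8 CPM in the HK2 knockout. Every knockout library was above every wild type library. The difference was 1.28 ± 0.19 (2.43-fold, edgeR adjusted p = 0.0036) and rested on 91 reads in wild type and 208 in the knockout. With ironomycin, DENND1B fell by 0.70 ± 0.19 in wild type (edgeR adjusted p = 0.00732) and differed from DMSO by -0.03 ± 0.17 in the HK2 knockout (edgeR adjusted p = 0.927). The interaction of 0.67 ± 0.26 had an unadjusted p of 0.015 and an edgeR adjusted p of 1.

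FGL2 (ENSG00000127951), a fibrinogen-like protein with secreted immune-regulatory and membrane-bound prothrombinase forms, had the largest rise of the 8 called genes. It stood at 9.84, 6.73 and 10.1 CPM in wild type at 24 h and at 32.0, 23.0 and 22.9 CPM in the HK2 knockout. The lowest knockout library was above the highest wild type library, with a difference of 1.54 ± 0.27 (2.91-fold, edgeR adjusted p = 0.0263). FGL2 lies within CCDC146 on the opposite strand, and whether reads were counted by strand is not given in the sources used here. CCDC146 had 70 reads in wild type and 96 in the knockout, against 134 and 366 for FGL2. In DMSO the difference in FGL2 was 1.49 ± 0.27 (edgeR adjusted p = 0.0576).

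PLAC8 (ENSG00000145287) is a small cysteine-rich protein of myeloid and lymphoid cells. At 24 h wild type had 60.7, 44.9 and 58.8 CPM and the HK2 knockout 103.0, 87.8 and 93.3 CPM, with no overlap. The difference was 0.79 ± 0.14 (edgeR adjusted p = 0.0263). With ironomycin PLAC8 fell by 1.40 ± 0.14 in wild type (edgeR adjusted p = 8.74e-08) and fell by 1.16 ± 0.13 in the HK2 knockout (edgeR adjusted p = 1.15e-06). The knockout libraries lay above those of wild type in DMSO as well.

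CRYBG1 (ENSG00000112297), a crystallin-domain protein that binds the actin cytoskeleton, differed by 0.90 ± 0.16 (edgeR adjusted p = 0.0263). Wild type at 24 h had 25.8, 18 and 15.7 CPM, and the HK2 knockout had 38.1, 38.6 and 34.2 CPM. The groups were separate at 24 h, and in DMSO their libraries overlapped, with a difference of 0.13 ± 0.16. The interaction of 0.77 ± 0.22 was the largest in size among the 8 genes (unadjusted p = 0.00209, edgeR adjusted p = 1).

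SLC2A5 (ENSG00000142583), the fructose transporter GLUT5, was lower in the knockout. It stood at 46.7, 55.6 and 46.9 CPM in wild type at 24 h and at 24.6, 27.0 and 26.2 CPM in the HK2 knockout. The groups did not overlap, and the difference was -0.94 ± 0.17 (edgeR adjusted p = 0.0374). In wild type SLC2A5 rose by 0.76 ± 0.17 with ironomycin (edgeR adjusted p = 0.00155).

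CADM1 (ENSG00000182985), an immunoglobulin-type cell adhesion molecule, was also lower. Wild type at 24 h had 111.1, 116.5 and 110.3 CPM, and the HK2 knockout had 59.0, 65.0 and 63.1 CPM. The replicates were tight and the groups far apart, with a difference of -0.85 ± 0.16 (edgeR adjusted p = 0.0421). CADM1 was among the transcripts that ironomycin raised in both genotypes, by 2.57 ± 0.18 in wild type (edgeR adjusted p = 6.46e-10) and 2.39 ± 0.19 in the HK2 knockout (edgeR adjusted p = 6.13e-09).

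MEF2C (ENSG00000081189), a transcription factor often high in KMT2A-rearranged leukaemia, showed the smallest of the 8 differences. It stood at 259.8, 239.4 and 255.2 CPM in wild type at 24 h and at 182.3, 180.6 and 150.9 CPM in the HK2 knockout. The groups did not overlap and differed by -0.55 ± 0.11 (edgeR adjusted p = 0.0499). Its call was lost with RLE size factors (edgeR adjusted p = 0.0514) and with the compared groups alone (edgeR adjusted p = 0.102). Over all alternatives its adjusted p was 0.00103 to 0.286. Its antisense partner MEF2C-AS1 had 69 and 70 reads, against 3794 and 2429 for MEF2C.

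On leaving out a library the edgeR count fell to between 2 and 4 genes. PLAC8 and CRYBG1 were called only without wild type replicate 1, and FGL2, SLC2A5, CADM1 and MEF2C were called in none of the 6 reduced sets (lowest edgeR adjusted p of the 4 genes 0.0557). The log2 difference of CHI3L1 ranged from -1.78 to -1.42 in these sets, that of FGL2 from 1.37 to 1.64 and that of CADM1 from -0.88 to -0.81. Libraries of the genotypes did not overlap for 662 genes in the higher direction (5.7%) and 659 in the lower (5.68%) among all genes tested, so separation of the libraries alone does not mark out these 8.

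**Figure D2:**
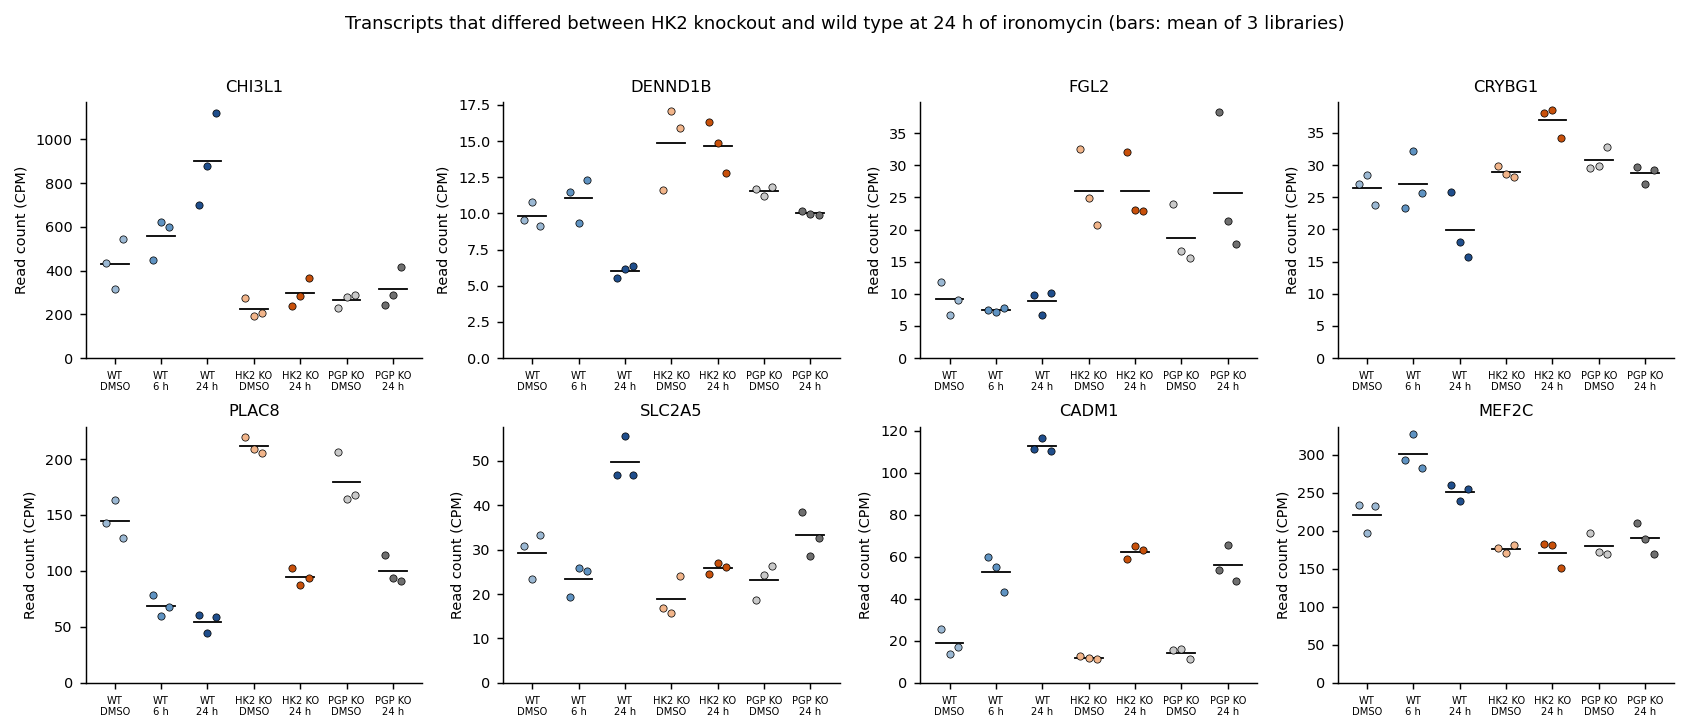
Read counts (CPM, linear axes from 0) in all 21 libraries for the 8 genes called between HK2 knockout and wild type at 24 h of ironomycin. Points are libraries and bars are means of 3. In each panel the 3 HK2 knockout libraries at 24 h lie entirely to 1 side of the wild type libraries at 24 h. CHI3L1, for example, lies between 239.2 and 365.3 CPM in the knockout and between 699.8 and 1122.7 CPM in wild type.

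The same genotypes without the drug gave a separate set of libraries. In DMSO 1 gene was called by edgeR (0.00861%), namely OFD1, a centrosomal protein, which was higher in the HK2 knockout by 0.83 ± 0.13 (adjusted p = 0.0354). At 24 h of ironomycin OFD1 differed by 0.22 ± 0.14. All 8 genes called under ironomycin had the same sign in DMSO, where their differences were -0.93 ± 0.22 for CHI3L1, 0.61 ± 0.17 for DENND1B, 0.54 ± 0.13 for PLAC8, -0.63 ± 0.18 for SLC2A5, -0.67 ± 0.20 for CADM1 and -0.32 ± 0.11 for MEF2C, beside the values of FGL2 and CRYBG1 given above. Of the 41 genes with an unadjusted p under 0.001 under ironomycin, 40 had the same sign in DMSO, against 57.6% of all genes. Across genes, which are not independent replicates, the log2 differences in DMSO and ironomycin had a Pearson correlation of 0.207 over all 11610 genes and 0.422 over the 1732 genes with at least 100 CPM.

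Shared calls between DMSO and ironomycin depended on the setting. No gene was called in both by the edgeR test over all libraries. DESeq2 called 17 genes under ironomycin and 23 in DMSO and shared 5, CHI3L1, FGL2, HK2, MYBPH and PLAC8, all in the same direction (29.4% of the first list and 21.7% of the second). A fit of the compared groups alone called 14 and 18 genes and shared 6, the same 5 genes and MIR124-1HG.

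**Figure D3:**
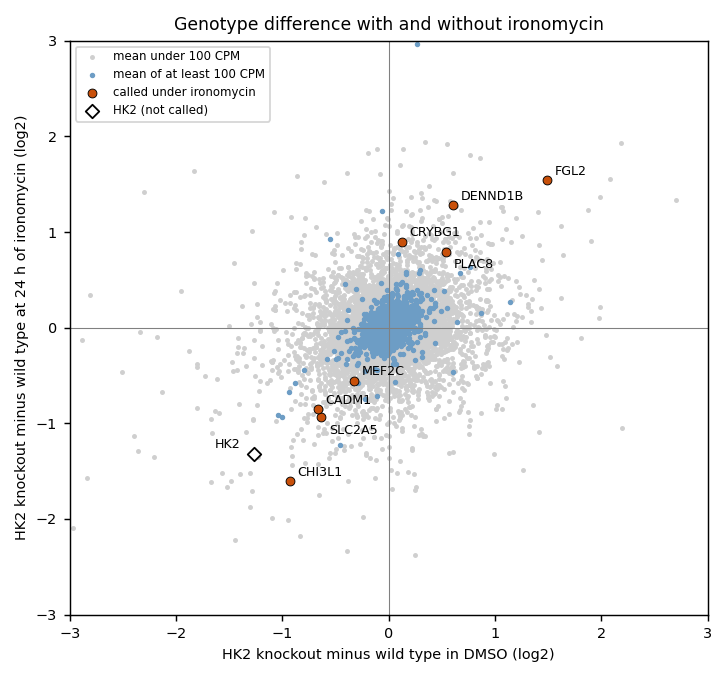
Log2 fold change of HK2 knockout over wild type in DMSO (horizontal) and at 24 h of ironomycin (vertical). Each point is a gene; 11594 of 11610 fall within the axes. Blue points have a mean of at least 100 CPM, orange points are the 8 called genes and the diamond is HK2. The 8 genes lie in the lower left and upper right quadrants, and the blue cloud is elongated along the same diagonal (r = 0.422).

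Ironomycin was not shown to change the genotype difference of any gene. The interaction, the difference at 24 h minus the difference in DMSO, had 0 genes called in edgeR (0%) and 0 in DESeq2, with 267 genes at an unadjusted p under 0.05. The interval of the interaction lay within 2-fold in either direction for 7543 genes (65.0%), so larger changes remained possible for the rest.

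Few genes separated the HK2 and PGP knockouts under the drug. Tested directly at 24 h, edgeR called 1 gene (0.00861%), TKTL1, a transketolase-like protein related to the pentose phosphate enzyme. TKTL1 was low, at 0.71, 0.623 and 0.382 CPM in the HK2 knockout, 7.73, 6.26 and 3.5 CPM in the PGP knockout and 1.23, 3.76 and 2.91 CPM in wild type. In these HK2 knockout libraries 3 counts amount to 0.7006, 0.6262 and 0.5882 CPM before TMM scaling. The HK2 knockout values thus rested on very few reads, and the size of the difference is uncertain. The difference, HK2 minus PGP knockout, was -3.31 ± 0.55 (edgeR adjusted p = 0.0492). No gene was called in a fit of these 2 groups alone, nor on leaving out any of their libraries but PGP knockout replicate 3. With the replicate number as a block TKTL1 was again the gene called, at -3.29 ± 0.51 (edgeR adjusted p = 0.0216). PGP knockout against wild type at 24 h called 6 genes (0.0517%). Among them were CHI3L1 (edgeR adjusted p = 0.00724), PLAC8 and CADM1 (each 0.0102) and FGL2 (0.0236), which were also called in the HK2 comparison. The PGP comparison uses the same wild type libraries as the HK2 comparison, so its values are given only side by side. CHI3L1 differed by -1.60 in the HK2 and -1.51 in the PGP knockout, FGL2 by 1.54 and 1.53, PLAC8 by 0.79 and 0.86, CADM1 by -0.85 and -1.01. DENND1B differed by 1.28 and 0.73, CRYBG1 by 0.90 and 0.54, SLC2A5 by -0.94 and -0.58 and MEF2C by -0.55 and -0.40.

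Between the knockouts none of the 8 genes was called. In the main fit, which had no block, the direct difference, HK2 minus PGP knockout, was -0.09 ± 0.22 for CHI3L1 (95% interval -0.54 to 0.36). It was 0.01 ± 0.25 for FGL2 (-0.51 to 0.53) and -0.07 ± 0.14 for PLAC8 (-0.35 to 0.21). DENND1B had the largest, 0.55 ± 0.18, with an unadjusted p of 0.00544 and an edgeR adjusted p of 1. HK2 itself differed by -1.01 ± 0.29 (edgeR adjusted p = 0.903). With the replicate number as a block the difference was 0.54 ± 0.18 for DENND1B (edgeR adjusted p = 0.774) and -1.02 ± 0.24 for HK2 (edgeR adjusted p = 0.38). It was -0.09 ± 0.17 for CHI3L1, 0.05 ± 0.18 for FGL2 and -0.07 ± 0.11 for PLAC8, and none of the 8 genes was called.

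Genes that use the product of hexokinase were described by list, with the median difference of all 11610 genes at 0.0027 for comparison. Of 19 glycolysis genes tested, 7 lay above and 12 below 0, none was called by edgeR or DESeq2 and none had an unadjusted p under 0.05. Their median was -0.06 and their range -0.61 to 0.18. ENO1, the enolase, stood at 1879.6, 2216.6 and 1938.9 CPM in wild type at 24 h and at 2039.3, 1855.4 and 1876.5 CPM in the HK2 knockout, and these overlapped (-0.06 ± 0.13). ALDOA, the aldolase, differed by 0.04 ± 0.13. The pentose phosphate genes had a median of 0.05 with 0 of 9 called by either tool and 0 at an unadjusted p under 0.05. In that list TALDO1, transaldolase, differed by -0.03 ± 0.10 and PGD, the NADPH-producing 6-phosphogluconate dehydrogenase, by -0.14 ± 0.10. Glycogen and hexosamine genes had a median of 0.06 with 0 of 14 called by either tool and 0 at an unadjusted p under 0.05.

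Among 7 transporters of glucose, fructose and lactate, 1 was called, SLC2A5, and the median was -0.16. SLC2A3, the high-affinity glucose transporter GLUT3, was named after its values were seen. It stood at 49, 67.1 and 67.7 CPM in wild type at 24 h and at 38.8, 41.9 and 47.6 CPM in the HK2 knockout. Those groups came close without overlapping, and the difference of -0.52 ± 0.14 was not called (edgeR adjusted p = 0.306). The lactate exporters SLC16A1 and SLC16A3 differed by 0.14 ± 0.09 and -0.18 ± 0.15. The 6 tested genes of glucose-sensing factors and arrestins had a median of -0.03, with 3 above and 3 below 0 and none called by either tool. At an unadjusted p under 0.05, 1 was higher and 2 were lower, beside 2.84% and 2.65% of all genes. Those 3 were all low in CPM and were named after their values were seen. ARRDC4 is an arrestin that the glucose-sensing factors MLX and MLXIP control. It had 12.3, 7.72 and 8.34 CPM in wild type and 2.84, 2.49 and 5.55 CPM in the HK2 knockout at 24 h, again without overlap. Its difference was -1.35 ± 0.38 (edgeR adjusted p = 0.358) under ironomycin and -2.21 ± 0.44 in DMSO. MLXIPL, a factor of the same kind as MLXIP, also lay lower (-1.41 ± 0.53, edgeR adjusted p = 0.709). The arrestin ARRDC3 lay the other way, at 3.28, 1.38 and 3.1 CPM in wild type and 5.21, 3.94 and 7.08 CPM in the HK2 knockout (1.06 ± 0.47, edgeR adjusted p = 0.861). TXNIP, the better known relative of ARRDC4, was listed at 0 in all 6 libraries, as were the widely expressed NCOA4 and the myeloid marker CD68, so a 0 in this table can be a gene that the counting missed.

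Mitochondrial and death genes were near the median of all genes, except for those encoded in mitochondrial DNA. The pyruvate and tricarboxylic acid cycle list had a median of 0.00 over 33 genes, nuclear complex I genes 0.03 over 35, nuclear genes of complexes III to V 0.07 over 34 and the BCL-2 family 0.01 over 14. Though small in size, the differences of the complex III to V genes lay mostly to 1 side, with 29 above and 5 below 0. In DMSO 6 of these 34 genes were above 0. No member of these 4 lists was called by edgeR or DESeq2. At an unadjusted p under 0.05 there were 1 in the cycle list, 0 in complex I, 1 in complexes III to V and 0 in the BCL-2 family. BAX, a pore-forming effector of mitochondrial outer membrane permeabilisation, differed by 0.14 ± 0.19, and BAK1, its partner effector, by 0.19 ± 0.22. The death-promoting BBC3, also called PUMA, differed by 0.15 ± 0.14 and the protective MCL1 by 0.06 ± 0.16. BAX and BAK1 were named for the series title.

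The 13 messenger RNAs encoded by mitochondrial DNA, which specify core subunits of the respiratory chain, all lay above 0. Their median was 0.42, with 0 called by either tool and 8 at an unadjusted p under 0.05 in the higher direction, a share to be read beside the 2.84% of all genes. Summed over the list, wild type at 24 h had 17505.5, 26015.2 and 24996.8 CPM and the HK2 knockout 26467.6, 27898.5 and 37550.5 CPM. The sums came close without overlapping, and leaving out a library moved the median between 0.25 (without HK2 knockout replicate 3) and 0.53 (without wild type replicate 2). MT-ND4 stood at 2021.8, 3141.8 and 3053.9 CPM in wild type and at 3260.0, 3651.5 and 5306.5 CPM in the HK2 knockout (0.57 ± 0.22, edgeR adjusted p = 0.737). MT-ND1 differed by 0.42 ± 0.18 (edgeR adjusted p = 0.838). In DMSO the list's median was 0.16, also with 13 of 13 members above 0, and at 24 h the HK2 minus PGP knockout median was 0.09.

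The interferon-stimulated genes stood furthest from the rest as a list. These antiviral genes are switched on after interferon binds its receptor. Ironomycin against DMSO had a median of 2.92 over the 39 tested members in wild type and 2.29 in the HK2 knockout. Between the genotypes at 24 h the median was -0.64, with 38 of 39 members below 0, 0 called by either tool and 13 at an unadjusted p under 0.05 in the lower direction, beside 2.65% of all genes. The list's median in DMSO was -0.02. Summed over the list, wild type at 24 h had 3679.5, 2540.9 and 2521.8 CPM and the HK2 knockout 2257.4, 2072.5 and 2093.6 CPM, with wild type replicate 1 well above the other libraries. Without that library the median was -0.32, and without wild type replicate 2 it was -0.83.

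Single genes of that list differed in how far wild type replicate 1 stood out. IFITM2, a membrane protein that blocks virus entry, had 985.0, 1033.0 and 931.9 CPM in wild type and 893.9, 858.8 and 835.5 CPM in the HK2 knockout, separate but close (-0.19 ± 0.16, edgeR adjusted p = 1). XAF1, a pro-apoptotic interferon target, overlapped between the genotypes (-0.34 ± 0.17, edgeR adjusted p = 0.93). IFI6, a mitochondrial interferon-induced protein named after its values were seen, had 462.3, 191.7 and 213.5 CPM in wild type and 158.2, 90.1 and 121.6 CPM in the HK2 knockout. Replicate 1 was the highest in both, and the groups did not overlap (-1.23 ± 0.37, edgeR adjusted p = 0.407). In the PGP knockout at 24 h the summed list was at 3668.7, 2077.8 and 2125.2 CPM, so that replicate 1 was the highest library in all 3 genotypes. At 24 h the list's median was -0.50 for HK2 minus PGP knockout and -0.04 for PGP knockout minus wild type. Replicates 2 and 3 of the PGP knockout lay near the sums of the HK2 knockout.

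**Figure D4:**
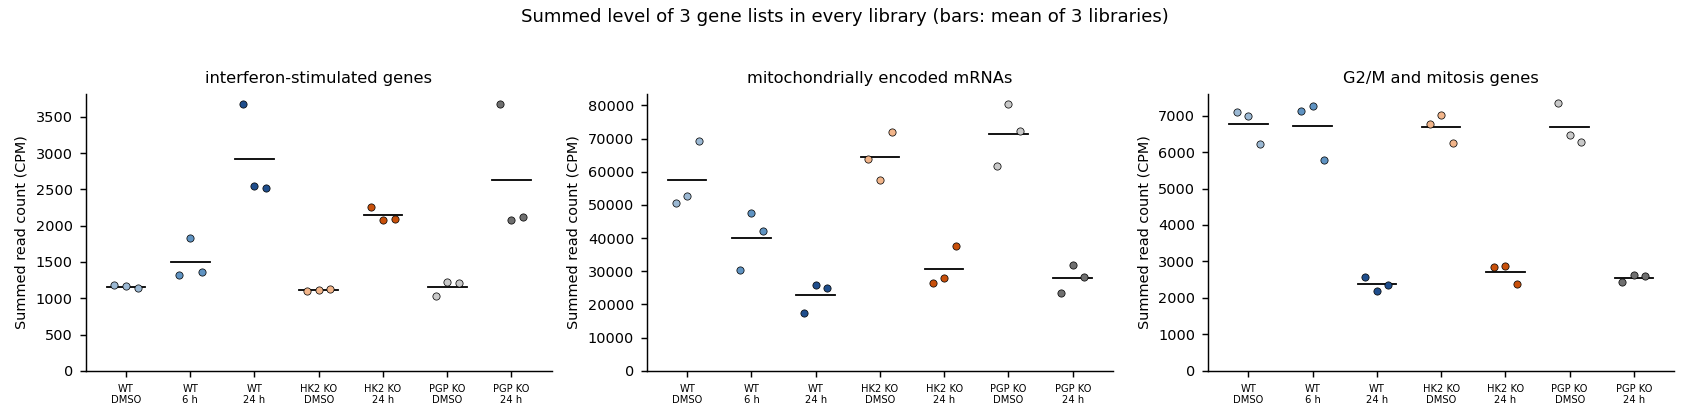
Summed read counts (CPM, linear axes from 0) of the interferon-stimulated, mitochondrially encoded and G2/M lists in each of the 21 libraries. Points are libraries and bars are means of 3. In the interferon panel, wild type replicate 1 (3679.5 CPM) and PGP knockout replicate 1 (3668.7 CPM) lie far above the other libraries of their groups at 24 h.

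Genes of G2 phase and mitosis, whose median difference from DMSO at 24 h was -1.58 in wild type and -1.41 in the HK2 knockout, were centred slightly higher in the treated knockout. Of 36 tested members, 33 were above 0, 0 were called by either tool and 8 had an unadjusted p under 0.05 in the higher direction, beside 2.84% of all genes. The median was 0.25, and 0.18 to 0.28 on leaving out a library, against -0.05 in DMSO. Summed over the list, wild type at 24 h ranged from 2198.0 to 2574.0 CPM and the HK2 knockout from 2386.3 to 2878.0 CPM, which overlapped. At 24 h the list's median was 0.13 for PGP knockout minus wild type and 0.08 for HK2 minus PGP knockout. TOP2A, the DNA topoisomerase of dividing cells, overlapped between the genotypes (0.26 ± 0.14). The mitotic checkpoint gene BUB3 lay the other way at -0.17 ± 0.09. CCNB1, which encodes the mitotic cyclin B1 and was named after its values were seen, had 22.1, 32.3 and 29.9 CPM in wild type and 43.3, 36.9 and 40 CPM in the HK2 knockout, without overlap (0.51 ± 0.16, edgeR adjusted p = 0.495). The 41 tested genes of G1/S and DNA replication had a median of -0.05 with 0 called by either tool and 1 at an unadjusted p under 0.05.

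No member of the stress, iron or cholesterol lists was called between the treated genotypes. The integrated stress response list had a median of -0.04 over 31 genes, with 0 called by either tool and 2 at an unadjusted p under 0.05. Its transcription factors ATF5 and ATF4 rose with ironomycin in wild type by 2.29 ± 0.15 and 1.08 ± 0.18 (edgeR adjusted p = 6.46e-10 and 8.98e-05), and differed between genotypes at 24 h by 0.16 ± 0.15 and 0.17 ± 0.18. The iron list had a median of 0.04 over 21 genes, with 0 called by either tool and 2 at an unadjusted p under 0.05. The ferritin light chain gene FTL stood at 8021.2, 8399.8 and 8719.8 CPM in wild type and at 7919.5, 8342.5 and 8547.7 CPM in the HK2 knockout, which overlapped almost fully (-0.02 ± 0.10). TFRC, the transferrin receptor, differed by -0.09 ± 0.16. Cholesterol synthesis genes had a median of 0.07 over 22 genes at 24 h and 0.35 in DMSO, with 0 called by either tool and 0 at an unadjusted p under 0.05 at 24 h.

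**Figure D5:**
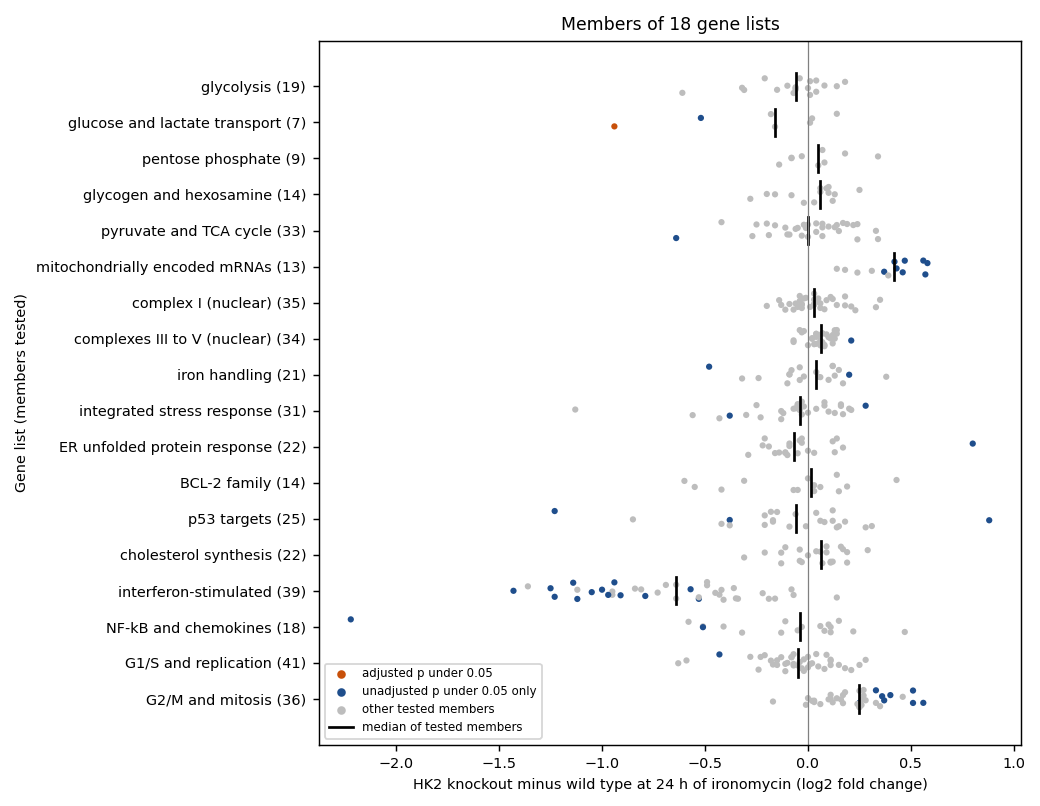
Log2 fold change of HK2 knockout over wild type at 24 h of ironomycin for each tested member of 18 gene lists, with the number tested in brackets. Each point is a gene, a black bar is the median of a list, orange marks an adjusted p under 0.05 and blue an unadjusted p under 0.05 only. The interferon-stimulated list is centred at -0.64, the mitochondrially encoded list at 0.42 and G2/M at 0.25, while the other medians lie within 0.2 of 0.

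Over all 40 lists, 36 had at least 3 tested members, and the median lay within 0.2 of 0 in 33 of them. The exceptions were the 3 lists just described. SLC2A5 and MEF2C were the only list members called by edgeR, and DESeq2 added HK2. MEF2C belongs to the list of KMT2A fusion targets, whose median was -0.05 over 15 genes. Its most abundant members, the cell cycle kinase CDK6 and the transcription factor MYB, differed by 0.23 ± 0.13 and -0.03 ± 0.10.

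Markers of the labelled cell type were present in both genotypes. FLT3 and CD33, a receptor kinase and a lectin of early myeloid cells, differed by -0.22 ± 0.23 and 0.21 ± 0.10. Summed over 12 myelomonocytic markers, wild type at 24 h ranged from 460.4 to 542.4 CPM and the HK2 knockout from 402.8 to 535.5 CPM. The 8 B-lymphoid markers summed to a low level, 11.8 to 19.3 CPM in wild type and 12.2 to 16.1 CPM in the HK2 knockout, with CD79B and VPREB1 at 0. Only 3 of them passed the filter on low counts, and all 3 are given here. EBF1, the B-lineage factor, was at 6.97, 3.76 and 4.85 CPM in wild type and 1.18, 1.25 and 1.15 CPM in the HK2 knockout, which was below in every library (-2.10 ± 0.46, edgeR adjusted p = 0.115; -2.97 ± 0.73 in DMSO). IGLL1, a surrogate light chain, lay the other way, at 3.48, 2.77 and 2.33 CPM in wild type and 7.1, 4.98 and 5.16 CPM in the HK2 knockout (0.99 ± 0.44, edgeR adjusted p = 0.861). PAX5, a B-lineage commitment factor, overlapped (-0.20 ± 0.38). No T-lymphoid, erythroid or megakaryocytic marker passed the filter on low counts, and CD3G, HBA1, HBA2, PF4, PPBP and GP9 were at 0 in the 6 libraries. The part of cell composition in the 8 called genes was not tested.

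Several transcripts that were not called passed the threshold in some of the 12 alternatives, which are 6 other settings and the omission of each of the 6 libraries. CCL2, a monocyte-attracting chemokine, stood at 54.3, 33.0 and 37.8 CPM in wild type at 24 h and at 9.24, 4.77 and 12.6 CPM in the HK2 knockout. The groups were well apart, at -2.22 ± 0.44 (edgeR adjusted p = 0.0538), and 4 of the 12 called it (adjusted p 1.18e-17 to 0.308), none of them by omission of a library. FAM20C, a kinase of secreted proteins, differed by -0.95 ± 0.19 (edgeR adjusted p = 0.0525) and was called in 4 of 12. MS4A3, a membrane protein of myeloid progenitors, had 57.0, 52.2 and 51.2 CPM in wild type and 128.6, 90.3 and 96.0 CPM in the HK2 knockout, again without overlap (0.97 ± 0.22, edgeR adjusted p = 0.115), and was called in 5 of 12. EIF1B, a paralogue of the translation start factor EIF1, differed by -0.74 ± 0.17 (edgeR adjusted p = 0.132) and the myosin-binding MYBPH by -0.94 ± 0.22 (edgeR adjusted p = 0.143), and each was called in 5 of 12. FAM20C, MS4A3, EIF1B and MYBPH were not called on leaving out any library. NFKBIL1, a nuclear protein related to inhibitors of NF-kB, had 8.76, 51.7 and 27.5 CPM in the HK2 knockout and 2.52 to 4.35 CPM in wild type, so its size rested on the uneven knockout libraries (3.06 ± 0.63, edgeR adjusted p = 0.0778). It was called in 6 of 12. These genes were chosen after their values were seen.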

How the data were processed

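The deposited values were raw read counts per Ensembl gene for 21 libraries in 7 groups of 3, with no normalization by the authors per the file headers. Per the submitters' processing notes and the labels' protocols, RNA was prepared with Qiagen RNeasy and Lexogen QuantSeq 3′, and reads were handled with bcl2fastq 2.20.0.422, HISAT2, HTSeq and hg19. A symbol was found for 51661 of the 54042 genes listed. The annotation used here (GENCODE 29, another build) served for names and overlaps only, and no coordinates are given. Near-identical copies and antisense genes are uncertain.

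Counts were tested with edgeR 4.0.16 (R 4.3.3): TMM, filterByExpr by group (minimum count 10, minimum total 15), a quasi-likelihood fit in which all 21 libraries and 7 group means shared the estimate of spread (common BCV 0.149), and Benjamini-Hochberg adjustment over the 11610 genes kept. A gene was called at an adjusted p under 0.05. The steps were run on simulated counts with the same BCV (0.149) for every gene and no outlying library or replicate effect. That run checked the code and not the calls made here.

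Named genes were HK2, PGP and the other glucose kinases; the largest called rises and falls (up to 12 each) with a mean of at least 5 CPM and no overlap; and, per list, up to 3 called members or the 2 with the highest mean. Others are marked in the text, and some genes chosen this way are not reported here. The comparison, the 40 lists and the settings were chosen with earlier results of these data known. Lists are described by counts and medians.

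Alternatives were DESeq2 1.42.0, a block for replicate number, RLE size factors, all genes unfiltered, a fit restricted to the compared groups, omission of each library in turn, and the removal of wild type 6 h replicate 2. The labels do not say what a replicate number marks. Departures from the group mean, taken per gene, correlated between same-numbered libraries at 0.097, 0.005 and 0.277 between the treated HK2 knockout and wild type. Differently numbered libraries of these groups correlated at -0.287 to 0.188. In DMSO same-numbered libraries of the 2 genotypes correlated at 0.205, 0.029 and 0.161, and differently numbered ones at -0.206 to 0.076. Between wild type at 24 h and in DMSO the values were 0.166, 0.05 and 0.236, against -0.213 to 0.056. For the HK2 knockout they were 0.04, -0.039 and 0.121, against -0.128 to 0.087. The main fit did not take the numbers to pair, a close choice made on the data alone. With the replicate number as a block, 19 genes were called rather than 8, and HK2 had an edgeR adjusted p of 0.0116. Between the treated knockouts same-numbered libraries correlated at 0.108, 0.301 and 0.169, each over 0.1, and differently numbered ones at -0.253 to 0.081. On these data alone, values with the block are therefore given there beside those of the main fit, which had no block.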

Additional observations from a re-analysis of the deposited data

How the results depend on the processing

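No called value changed sign under the settings run. The HK2 minus wild type comparison under ironomycin called 8 genes, and 101 with no low-count filter, 19 with the replicate number as a block, 14 with the compared groups alone, 19 without wild type 6 h replicate 2, 17 with DESeq2, 3 at a change of at least 2-fold, and 2 to 4 on leaving out a library. In DMSO the count of 1 became 59 with no filter, 19 with the block, 18 with the compared groups alone, 16 without that 6 h library, 23 with DESeq2, and 0 to 8 on leaving out a library. The interaction had 17 calls with no filter and 0 otherwise. HK2 minus PGP knockout had 49 with no filter, 1 with the block as without it, 0 with the compared groups alone and 0 to 1 on leaving out a library.

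The log2 difference of HK2 was called at -1.32 with no filter, -1.33 with the block, -1.32 with the compared groups alone, -1.33 without the 6 h library and -1.33 with DESeq2, and stayed uncalled at -1.51 to -1.17 on leaving out a library. Calls shared with DMSO rose from 0 to 21 with no filter, 7 with the block, 6 with the compared groups alone, 3 without the 6 h library and 5 with DESeq2. Without a filter many genes of few counts enter and share the fit. The edgeR adjusted p of genes kept in both fits also moved, from 0.00292 to 3.4e-31 for CHI3L1 and from 0.115 to 3.29e-10 for HK2. The cause of this shift and of the others was not tested. Depth limits genes under 5 CPM.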

Other observations

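One gene with a mean of at least 100 CPM moved by more than any called gene without passing the test. MTRNR2L12, a nuclear near-copy of mitochondrial ribosomal RNA, shares reads with its source to an unknown extent and had 6464.3, 248.4 and 132.1 CPM in the HK2 knockout at 24 h and 503.7, 170.9 and 203.4 CPM in wild type. Its fitted difference of 2.96 ± 1.08 (edgeR adjusted p = 0.702) rested on HK2 knockout replicate 1. In DMSO the PGP knockout also had 1 high library, at 290.3, 3532.9 and 96.1 CPM.

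MT-TL1, a mitochondrial transfer RNA gene, was at 90.1 CPM on average in wild type DMSO. At 24 h of ironomycin it was at 522.7, 512.3 and 534.2 CPM in wild type and 838.7, 1046.0 and 784.9 CPM in the HK2 knockout, without overlap (0.77 ± 0.21, edgeR adjusted p = 0.333, called in 3 of 12 alternatives). MIR124-1HG, a long non-coding RNA, was at 168.8, 171.1 and 192.9 CPM in wild type and 82.9, 98.0 and 102.3 CPM in the HK2 knockout (-0.91 ± 0.26, edgeR adjusted p = 0.35), with -1.04 ± 0.27 in DMSO.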
